A study of Homo sapiens with 6 samples.

Results

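The members of 6 families of amino acid transporters were described in prostate cancer cells treated with inhibitors of the chaperone HSP70. The families are SLC1, SLC3, SLC7, SLC36, SLC38 and SLC43, and the members were protein-coding genes taken by the start of their symbol (SLC1A, SLC3A, SLC7A, SLC36A, SLC38A or SLC43A). This gave 41 of the 60658 genes listed. SLC7A6OS was counted apart, since it is a gene on the strand opposite SLC7A6 and not a transporter. Of the remaining 40 genes, 32 were above 0.1 FPKM in at least 1 library, as were 23671 of all genes. FPKM divides the fragments sequenced from a gene by its transcript length and by the size of the library, so that levels of different genes can be set side by side. The 8 genes that stayed at or below 0.1 FPKM in every library were SLC1A6, SLC1A7, SLC7A4, SLC7A10, SLC7A13, SLC7A14, SLC36A2 and SLC36A3. Nearest to the threshold, SLC1A2 reached 0.174 FPKM and SLC36A2 reached 0.062 FPKM.

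Amino acids are charged or polar and cross membranes through carriers of these families. SLC1 proteins carry acidic and small neutral amino acids with sodium. SLC3 proteins are heavy chains that bring SLC7 light chains to the cell surface, where the pair exchanges one amino acid for another, and other SLC7 members carry cationic amino acids on their own. SLC38 members carry glutamine and other neutral amino acids with sodium, most SLC36 members move small amino acids with protons, and SLC43 members facilitate uptake of large neutral amino acids. Several of these genes are known targets of ATF4, the transcription factor of the response to amino acid shortage and endoplasmic reticulum stress.

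Cells of the lines C4-2B MDVR and CWR22Rv1 were treated for 48 h with the vehicle DMSO, with 10 µM apoptozole (APO) or with 10 µM VER155008 (VER). Both lines are established from castration-resistant prostate cancer and resist enzalutamide, a drug used against prostate cancer. C4-2B MDVR was derived from C4-2B under enzalutamide and was kept in 20 µM of the drug, and CWR22Rv1 was kept without it. APO and VER block the ATPase of HSP70. Each of the 6 conditions had 1 library, so the differences below were not checked against replicates and carry no p-value.

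Total FPKM ranged from 647172 to 747932 among the libraries, and 17603 to 19376 genes were above 0.1 FPKM. The paper gives an approximate number of reads per sample, but read totals of each library were not given. Depth read from low FPKM values was between 1 and 1.63 times that of the C4-2B MDVR DMSO library. Mitochondrial genes took 14.8% to 16.4% of all FPKM in C4-2B MDVR, 25.7% in CWR22Rv1 with DMSO or VER and 10.4% in CWR22Rv1 with APO. Any share that these differences had in the values below was not tested, other than by the rescalings given at the end. All 10 markers of prostate luminal cells that were looked at were above 2 FPKM in every library, while the 7 markers of other cells were mixed. PECAM1 was listed at 0, PTPRC was at most 0.03 FPKM, and VWF and COL1A2 were at most 0.294 and 0.204 FPKM. CD68 was at 0.307 to 3.68 FPKM, DCN at 0.078 to 1.70 FPKM and COL1A1 at 3.32 to 10.8 FPKM. Of 4 neuroendocrine genes, INSM1 was at most 0.156 FPKM and ENO2 was at 14.7 to 21.9 FPKM in C4-2B MDVR and at 32.8 to 79.3 FPKM in CWR22Rv1. SYP was at 0.26 to 0.92 FPKM in C4-2B MDVR and at 30.0 to 49.99 FPKM in CWR22Rv1, and CHGA was listed at 0 in C4-2B MDVR and at 8.64 to 11.7 FPKM in CWR22Rv1. The part of these markers in the differences between the lines was not tested.

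Summed over the families, transporter RNA was higher with each inhibitor in each line, and 4 genes held most of it. The summed FPKM of the 40 genes was 773.5 with DMSO, 2629 under APO and 1844 under VER in C4-2B MDVR. In CWR22Rv1 the sums were 1190, 2719 and 1963 FPKM. SLC3A2, SLC7A5, SLC1A5 and SLC38A2 were the 4 highest members in all 6 libraries. They held 56.0% of the sum with DMSO, 76.6% under APO and 66.5% under VER in C4-2B MDVR, and 73.9%, 86.9% and 80.4% in CWR22Rv1. The sum was thus mostly a sum of these genes, and SLC3A2 was the highest of them in every library.

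**Figure D1:**
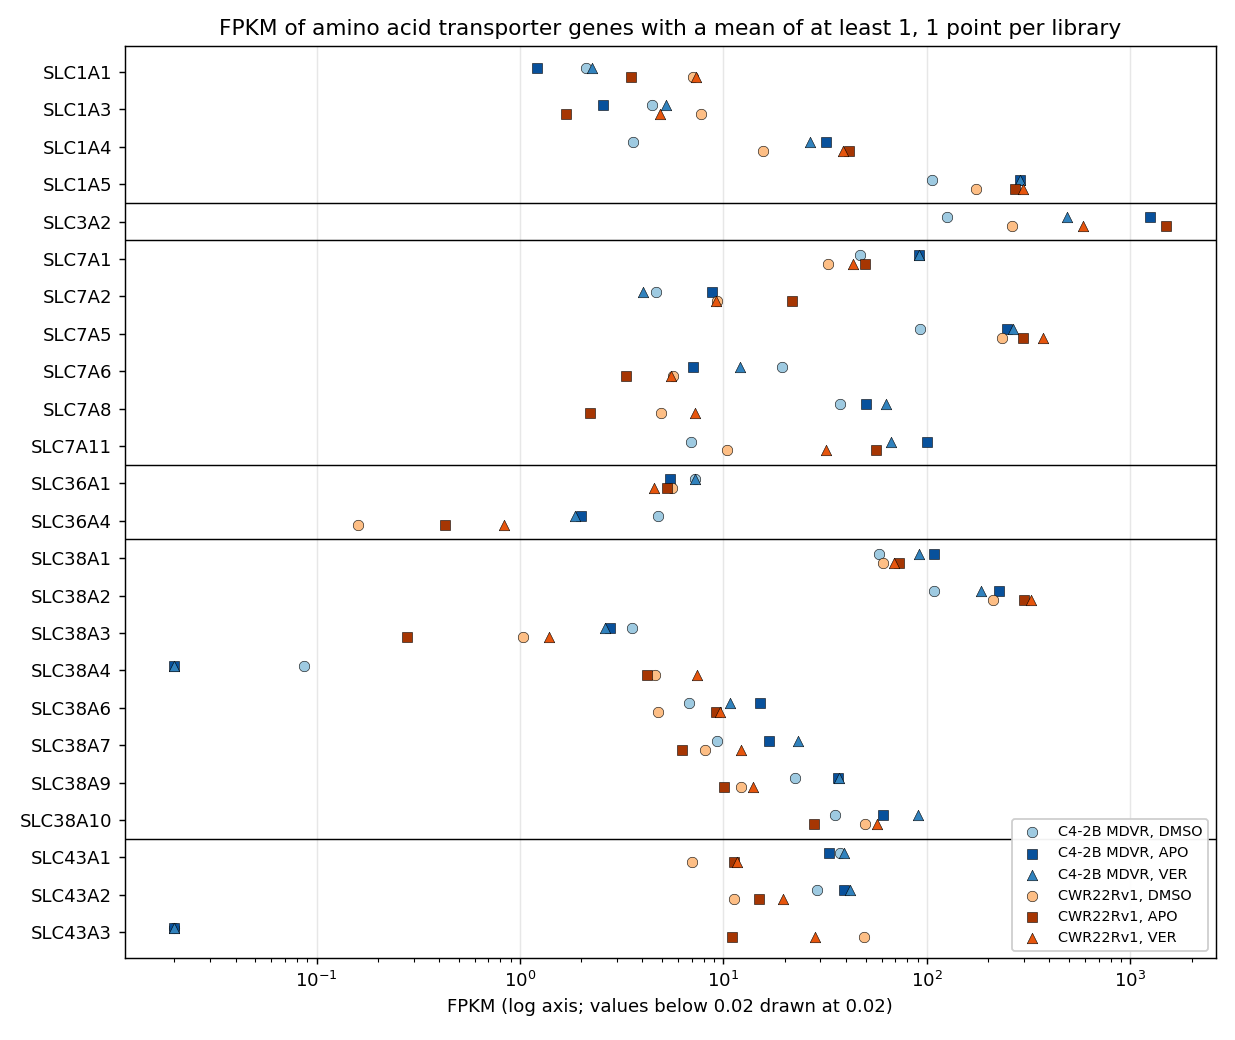
FPKM, in each of the 6 libraries, of the transporter genes that averaged 1 FPKM or more, on a log axis and grouped by family, with 1 point for each library. SLC3A2 lies highest, at 126 to 1496 FPKM, and SLC43A3 is at 0 in the 3 C4-2B MDVR libraries.

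Changes were taken as differences of log2(FPKM + 0.1) from DMSO of the same line, which understates changes of genes near 0.1 FPKM. A gene was said to rise or fall when this difference passed 2-fold, and a gene had to exceed 0.1 FPKM in 1 or more of the 3 libraries of that line. In C4-2B MDVR with APO, 9 of the 30 members that passed this filter rose, where 15.4% of all genes rose, and 2 fell, where 13.3% of all genes fell. With VER, 8 of 30 rose in C4-2B MDVR beside 14.4% of all genes, and 2 fell beside 13.3%. In CWR22Rv1 with APO, 6 of 31 rose beside 13.8% of all genes and 6 fell beside 16.8%. With VER, 5 of 31 rose in CWR22Rv1 beside 10.8% and 1 fell beside 8.92%. The count of 5 was 8 at a pseudocount of 0.01 or after scaling to a median ratio of 1, and 3 at a pseudocount of 1. Both contrasts of a line share its DMSO library.

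The median log2 difference of the members that passed was 0.57 under APO and 0.41 under VER in C4-2B MDVR, beside 0 over all genes in both contrasts. In CWR22Rv1 it was 0.13 with APO and 0.54 with VER, beside -0.01 and -0.0001. Many low genes are noisy, so the 24 members with a mean of at least 1 FPKM over the libraries were also counted. Of the 22 that passed in C4-2B MDVR, 7 rose with APO and 7 with VER, where 10.3% and 9.98% of all genes of this level rose, and 2 and 1 fell, where 9.07% and 8.71% fell. All 24 passed in CWR22Rv1. There 5 rose and 4 fell with APO, beside 9.92% and 11.5% of genes, and 4 rose and 0 fell with VER, beside 4.77% and 3.57%.

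At 1.2-fold, the threshold of the study, most genes of the whole table pass. By this rule 18 of 30 members were higher and 9 lower under APO in the C4-2B MDVR line, beside 37.7% and 35.4% of all genes, and 15 were higher and 5 lower under VER, beside 35.6% and 34.9%. Among the 31 members of CWR22Rv1, 14 were higher and 11 lower under APO, beside 35.6% and 39.2%, and 18 were higher and 6 lower under VER, beside 32.1% and 32.3%. Between the DMSO libraries, 13 were higher in C4-2B MDVR and 14 in CWR22Rv1, beside 35.5% and 39.9%.

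SLC3A2, SLC7A11 and SLC1A4 rose in all 4 contrasts. They were 3 (10.3%) of the 29 members that passed in both lines, and 240 of 18059 genes (1.33%) did the same. No member fell in all 4 contrasts, as 226 genes (1.25%) did.

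SLC3A2 (ENSG00000168003) encodes the CD98 heavy chain, the shared partner of the light chains SLC7A5, SLC7A6, SLC7A7, SLC7A8, SLC7A10 and SLC7A11. The gene lies on chromosome 11 at 62856102 to 62888875 on the plus strand (GENCODE 29, GRCh38, as are all gene positions given here). Its level was 126 FPKM with DMSO, 1251 under APO and 489.7 under VER in C4-2B MDVR, and 261, 1496 and 582 FPKM in CWR22Rv1. Both APO libraries lay highest and both VER libraries next, and each treated library lay above both DMSO libraries. The log2 differences from DMSO were 3.31 under APO and 1.96 under VER in C4-2B MDVR, and 2.52 and 1.16 in CWR22Rv1. Between the inhibitors, VER minus APO was -1.35 in C4-2B MDVR and -1.36 in CWR22Rv1. By level among all genes, SLC3A2 went from place 731 with DMSO to place 89 under APO and 157 under VER in C4-2B MDVR, and from place 284 to 58 and 139 in CWR22Rv1.

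SLC7A11 (ENSG00000151012; chromosome 4, 138164097 to 138242349, minus strand) encodes xCT, the light chain that takes up cystine in exchange for glutamate and so feeds glutathione synthesis. It was at 6.91 FPKM with DMSO, 100.2 under APO and 66.96 under VER in C4-2B MDVR. The CWR22Rv1 libraries held 10.4, 56.5 and 32.0 FPKM in the same order. All 4 treated libraries lay above both DMSO libraries, with APO above VER in each line. The log2 differences were 3.84 and 3.26 in C4-2B MDVR, the largest of any member, and 2.42 and 1.61 in CWR22Rv1. Among all genes that passed, 127 had a larger rise under APO and 191 under VER in C4-2B MDVR, against 488 and 1045 in CWR22Rv1. An antisense gene, SLC7A11-AS1, overlaps SLC7A11, and the strand setting of the counting is not given in the sources used here. Its own level was below 1 FPKM in all 6 libraries.

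SLC7A5 (ENSG00000103257) encodes LAT1, the main carrier of leucine and other large neutral amino acids into many tumour cells. Its level was 92.5, 248.7 and 264 FPKM with DMSO, APO and VER in C4-2B MDVR, and 232.9, 295 and 374 FPKM in CWR22Rv1. The C4-2B MDVR DMSO library was the only low one, and the 2 treated C4-2B MDVR libraries came up to the range of CWR22Rv1. SLC7A5 rose in C4-2B MDVR, by 1.43 with APO and 1.51 with VER on the log2 scale. In CWR22Rv1 the differences of 0.34 and 0.68 did not pass 2-fold. Near-identical pseudogenes of SLC7A5 exist, and how reads were divided among them is not given in the sources used here.

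SLC7A8 (ENSG00000092068) encodes LAT2, another carrier of neutral amino acids. It was at 37.5, 50.3 and 63.1 FPKM with DMSO, APO and VER in C4-2B MDVR, and at 4.94, 2.21 and 7.26 FPKM in CWR22Rv1. The lines did not overlap, with C4-2B MDVR higher. With APO the 2 lines went apart: the log2 difference was 0.42 in C4-2B MDVR, while SLC7A8 fell by 1.13 in CWR22Rv1. With VER it was 0.75 and 0.54.

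SLC7A6 (ENSG00000103064) encodes y+LAT2, which exchanges cationic for neutral amino acids. Its level was 19.4 FPKM with DMSO, 7.06 under APO and 12.03 under VER in C4-2B MDVR, and 5.68, 3.34 and 5.54 FPKM in CWR22Rv1. DMSO was the highest and APO the lowest library of each line. It fell by 1.45 on the log2 scale with APO in C4-2B MDVR, and the other differences were -0.69 with VER there and -0.75 and -0.03 with APO and VER in CWR22Rv1. SLC7A6OS, which overlaps it on the other strand, was at 5.42 to 8.001 FPKM and passed 2-fold in no contrast. SLC7A7, the related y+LAT1, was at 0.07 to 0.366 FPKM.

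Set against its light chains, the heavy chain gained with APO. SLC3A2 had 0.805 times the summed FPKM of the 6 light chains with DMSO in C4-2B MDVR, 3.08 times with APO and 1.204 times with VER. In CWR22Rv1 the ratio was 1.03, 4.19 and 1.39. The sum itself was 156.7, 406.5 and 406.8 FPKM in C4-2B MDVR and 254.1, 357.6 and 419.3 FPKM in CWR22Rv1. The light chain sum was therefore alike under APO and VER in C4-2B MDVR, and the ratio differed through SLC3A2. These are ratios of RNA, and protein was not measured here.

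The makeup of the light chains also differed. SLC7A5 held 59.0%, 61.2% and 65.0% of their FPKM with DMSO, APO and VER in C4-2B MDVR, and 91.7%, 82.6% and 89.2% in CWR22Rv1. SLC7A11 held 4.41% with DMSO, 24.7% under APO and 16.5% under VER in C4-2B MDVR. Its share in CWR22Rv1 was 4.11%, 15.8% and 7.64%. The share of SLC7A8 was lower with either inhibitor in C4-2B MDVR, at 23.9%, 12.4% and 15.5%, and was at most 1.95% in CWR22Rv1. SLC7A6 went from 12.4% with DMSO to 1.74% and 2.96% in C4-2B MDVR.

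**Figure D2:**
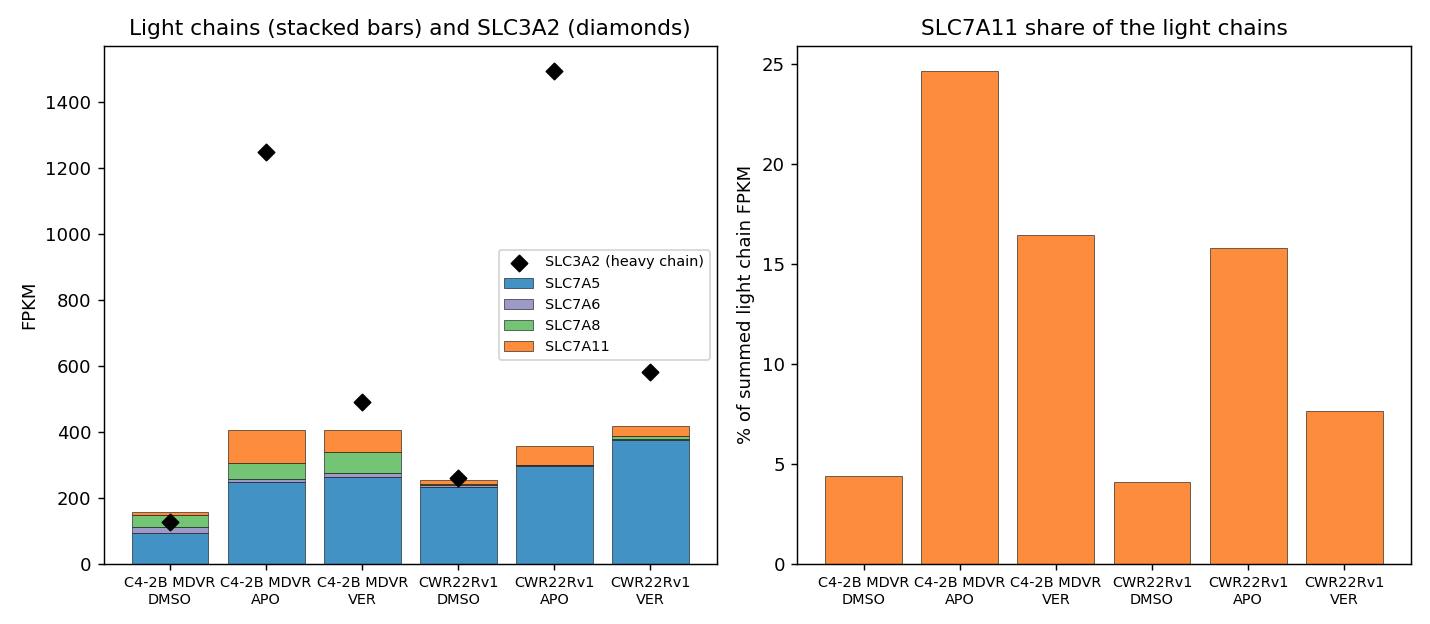
FPKM of the heavy chain SLC3A2 and of its light chains, stacked, in each of the 6 libraries. SLC3A2 exceeds the light chain sum most with APO, 3.08-fold in C4-2B MDVR and 4.19-fold in CWR22Rv1, and SLC7A11 takes a larger part of the light chains with either inhibitor than with DMSO.

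The SLC7 members that carry lysine and arginine without a heavy chain were higher with APO in both lines. SLC7A1 (ENSG00000139514), the widely expressed CAT1, was at 47.1, 91.7 and 91.6 FPKM with DMSO, APO and VER in C4-2B MDVR. Its levels in CWR22Rv1 were 32.7, 49.8 and 43.2 FPKM. Both treated libraries lay above DMSO in each line, but the log2 differences of 0.96 and 0.96 in C4-2B MDVR and 0.61 and 0.40 in CWR22Rv1 did not pass 2-fold.

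SLC7A2 (ENSG00000003989), the CAT2 carrier, followed APO and not VER. It was at 4.66, 8.78 and 4.03 FPKM in C4-2B MDVR and at 9.33, 21.7 and 9.23 FPKM in CWR22Rv1. The VER and DMSO libraries of a line were within 0.20 of each other on the log2 scale, and APO lay 0.90 above DMSO in C4-2B MDVR and 1.21 above it in CWR22Rv1, where it rose. VER minus APO was -1.10 in C4-2B MDVR and -1.23 in CWR22Rv1. SLC7A3 was at 0.102 to 0.173 FPKM in 5 libraries and at 0.469 FPKM in CWR22Rv1 with VER. By the 2-fold rule it rose there, by 1.49 from a DMSO level near the added 0.1, and it enters the count of risen members.

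SLC3A1 and SLC7A9, the heavy and light chain of the cystine carrier of kidney and gut, were at the edge of detection, at 0.021 to 0.356 FPKM and 0.055 to 0.306 FPKM. Their differences rest on values close to the added 0.1 and have little precision at this depth. By the 2-fold rule SLC3A1 rose with APO in CWR22Rv1 and SLC7A9 fell with VER in C4-2B MDVR.

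In the SLC1 family the neutral carriers were higher with both inhibitors. SLC1A4 (ENSG00000115902; chromosome 2, 64988477 to 65023865, plus strand) encodes ASCT1, which carries serine, alanine and cysteine. Its level was 3.59, 31.9 and 26.6 FPKM with DMSO, APO and VER in C4-2B MDVR, and 15.7, 41.4 and 38.7 FPKM in CWR22Rv1. All 4 treated libraries lay above both DMSO libraries. SLC1A4 rose by 3.12 and 2.86 on the log2 scale in C4-2B MDVR and by 1.39 and 1.30 in CWR22Rv1. The change was 1.72 larger in C4-2B MDVR with APO and 1.56 larger with VER. The C4-2B MDVR DMSO level, which enters both values, was 4.37 times lower than that of CWR22Rv1.

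SLC1A5 (ENSG00000105281; chromosome 19, 46774883 to 46788594, minus strand) encodes ASCT2, a main route of glutamine into tumour cells. It was at 106 FPKM with DMSO, 287 under APO and 288 under VER in C4-2B MDVR, and at 173, 271 and 296 FPKM in CWR22Rv1. Again the DMSO libraries were the lowest, and the 4 treated libraries lay within a narrow range of 271 to 296 FPKM. The log2 differences were 1.43 and 1.44 in C4-2B MDVR and 0.64 and 0.77 in CWR22Rv1, so that it rose only in the first line by the 2-fold rule. SLC1A5 had 29.6 times the FPKM of SLC1A4 with DMSO in C4-2B MDVR, 9.004 times with APO and 10.8 times with VER. The ratio was 11.1, 6.54 and 7.65 in CWR22Rv1.

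Another pattern was seen for the glutamate carriers SLC1A3 and SLC1A1, with APO lowest in each line. SLC1A3 (ENSG00000079215), the glutamate and aspartate carrier EAAT1, was at 4.48, 2.55 and 5.21 FPKM with DMSO, APO and VER in C4-2B MDVR and at 7.76, 1.69 and 4.89 FPKM in CWR22Rv1. It fell by 2.14 on the log2 scale with APO in CWR22Rv1, and the value with APO in C4-2B MDVR was -0.79. With VER the differences were 0.21 and -0.66.

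SLC1A1 (ENSG00000106688), the glutamate and cysteine carrier EAAT3, was at 2.11, 1.21 and 2.25 FPKM in C4-2B MDVR and at 7.06, 3.52 and 7.32 FPKM in CWR22Rv1. APO lay 0.76 below DMSO in C4-2B MDVR (log2 difference -0.76), and the difference of -0.98 in CWR22Rv1 was just short of 2-fold and reached -1.13 under a rescaling. The VER libraries differed from DMSO by 0.09 and 0.05. SLC1A2, the main glutamate carrier of astrocytes, did not share this order and was at 0.032 to 0.174 FPKM. It was at 0.161, 0.049 and 0.036 FPKM in C4-2B MDVR and at 0.168, 0.174 and 0.032 FPKM in CWR22Rv1. With VER in CWR22Rv1 the log2 difference of SLC1A2 was -1.02, the only fall of a member there by the 2-fold rule. It rests on values near the added 0.1.

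Of the SLC38 members, SLC38A1 and SLC38A2, known for uptake of glutamine at the cell surface, were higher with both inhibitors. SLC38A2 (ENSG00000134294), the carrier SNAT2, was at 108, 227 and 184 FPKM with DMSO, APO and VER in C4-2B MDVR and at 212, 301 and 325 FPKM in CWR22Rv1. Both inhibitor libraries lay above DMSO in each line. The log2 differences were 1.07 and 0.76 in C4-2B MDVR and 0.51 and 0.62 in CWR22Rv1. SLC38A2 thus rose in 1 contrast, and this call was lost under 2 rescalings, at 0.92 and 0.90.

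SLC38A1 (ENSG00000111371), the carrier SNAT1, was at 57.9, 109 and 91.1 FPKM in C4-2B MDVR and at 60.9, 73.0 and 68.7 FPKM in CWR22Rv1. Both DMSO libraries were lowest and close to each other. The differences of 0.91 and 0.65 in C4-2B MDVR and 0.26 and 0.17 in CWR22Rv1 did not pass 2-fold. SLC38A1 and SLC38A2 lie 88.2 kb apart on chromosome 12 with no coding gene between them, and SLC38A4 lies 391.9 kb beyond SLC38A2.

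SLC38A4 (ENSG00000139209), another carrier of this kind, is known from liver. It was at 4.59, 4.21 and 7.44 FPKM with DMSO, APO and VER in CWR22Rv1, with differences of -0.12 and 0.69. In C4-2B MDVR it was at 0.087 FPKM with DMSO and listed at 0 with APO and VER.

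SLC38A6 (ENSG00000139974) was at 6.76, 15.1 and 10.8 FPKM in C4-2B MDVR and at 4.76, 9.25 and 9.58 FPKM in CWR22Rv1, so that DMSO was lowest in each line. The differences were 1.15 and 0.67 in C4-2B MDVR and 0.94 and 0.99 in CWR22Rv1. They lie around the 2-fold line, and only the first passed it. Under rescalings the first went to 0.99 and the CWR22Rv1 values to 1.06 and 1.02.

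The SLC38 members known from the lysosome or the Golgi apparatus had differences of opposite sign in the 2 lines with APO. SLC38A7 (ENSG00000103042), which exports glutamine from lysosomes, was at 9.26, 16.7 and 23.3 FPKM in C4-2B MDVR and at 8.11, 6.26 and 12.2 FPKM in CWR22Rv1. It rose by 1.32 with VER in C4-2B MDVR. The other differences were 0.84 with APO in C4-2B MDVR, -0.37 with APO in CWR22Rv1 and 0.58 with VER in CWR22Rv1.

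SLC38A9 (ENSG00000177058) senses arginine in the lysosome for the growth kinase complex mTORC1. Its level was 22.5, 36.5 and 37.1 FPKM with DMSO, APO and VER in C4-2B MDVR and 12.2, 10.1 and 13.9 FPKM in CWR22Rv1. Every C4-2B MDVR library lay above every CWR22Rv1 library. The differences of 0.70 and 0.72, and of -0.28 and 0.19, did not pass 2-fold.

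SLC38A10 (ENSG00000157637) was at 35.5, 61.2 and 90.1 FPKM in C4-2B MDVR and at 49.9, 28.0 and 56.8 FPKM in CWR22Rv1. The CWR22Rv1 APO library was the lowest of the 6. SLC38A10 rose by 1.34 with VER in C4-2B MDVR, where APO gave 0.79, and the differences in CWR22Rv1 were -0.83 with APO and 0.19 with VER. For APO these values of opposite sign lay 1.62 apart on the log2 scale.

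SLC38A3 and SLC38A5 carry glutamine in exchange for protons and can run in both directions. SLC38A3 (ENSG00000188338) was at 3.54, 2.78 and 2.61 FPKM in C4-2B MDVR and at 1.03, 0.278 and 1.40 FPKM in CWR22Rv1. It fell by 1.59 on the log2 scale with APO in CWR22Rv1, and the other 3 differences were between -0.43 and 0.40. SLC38A5 was at 0.145 to 0.481 FPKM in C4-2B MDVR. In CWR22Rv1 it was at 1.42 FPKM with DMSO, 0.192 with APO and 0.752 with VER. With APO it rose by 1.24 in C4-2B MDVR, from a level near 0.1 FPKM, and fell by 2.38 in CWR22Rv1.

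SLC38A8 and SLC38A11 were listed at 0 in most libraries of C4-2B MDVR. SLC38A8 reached 0.282 FPKM with VER in C4-2B MDVR and was listed at 0 in the other 5 libraries. SLC38A11 was at 0.144 FPKM with APO in C4-2B MDVR and listed at 0 with DMSO and VER, and was at 0.08 to 0.454 FPKM in CWR22Rv1. These genes enter the counts of risen members in C4-2B MDVR, and no fold is given against a library at 0. With APO in CWR22Rv1, SLC38A11 fell by 1.62 on the log2 scale, from 0.454 to 0.080 FPKM, and enters the count of fallen members. Its APO calls were thus opposite in the 2 lines, and both rest on values near the added 0.1.

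SLC36A4 of the SLC36 family moved in opposite directions in the 2 lines. The gene (ENSG00000180773; chromosome 11, 93144171 to 93197964, minus strand) encodes PAT4, which carries proline and tryptophan with high affinity. It was at 4.78 FPKM with DMSO, 1.99 under APO and 1.86 under VER in C4-2B MDVR. In CWR22Rv1 it was at 0.160, 0.428 and 0.833 FPKM. Every C4-2B MDVR library lay above every CWR22Rv1 library, and treatment narrowed the gap from both sides. SLC36A4 fell by 1.22 and 1.32 in C4-2B MDVR and rose by 1.02 and 1.85 in CWR22Rv1. With a pseudocount of 1 the CWR22Rv1 values were 0.30 and 0.66 and the APO value in C4-2B MDVR was -0.95, all short of 2-fold, and the APO value was 0.92 without mitochondrial genes in the scaling.

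SLC36A1 (ENSG00000123643), the PAT1 carrier of lysosomes and gut, was nearly flat. It was at 7.24, 5.49 and 7.21 FPKM with DMSO, APO and VER in C4-2B MDVR and at 5.62, 5.29 and 4.56 FPKM in CWR22Rv1. The 4 log2 differences lay between -0.39 and -0.01.

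In the SLC43 family the lines differed more than the treatments. SLC43A1 (ENSG00000149150) encodes LAT3, a leucine carrier known from prostate cancer. It was at 37.2, 32.9 and 39.2 FPKM with DMSO, APO and VER in C4-2B MDVR and at 7.0, 11.3 and 11.7 FPKM in CWR22Rv1. The differences were -0.18 and 0.08 in C4-2B MDVR and 0.69 and 0.73 in CWR22Rv1, and none passed 2-fold.

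SLC43A2 (ENSG00000167703), the related LAT4, was at 28.8, 39.1 and 42.1 FPKM in C4-2B MDVR and at 11.3, 14.9 and 19.6 FPKM in CWR22Rv1. DMSO was lowest and VER highest in each line. The differences were 0.44 and 0.55 in C4-2B MDVR and 0.40 and 0.79 in CWR22Rv1.

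SLC43A3 (ENSG00000134802; chromosome 11, 57406954 to 57427580, minus strand) is named with this family but is known as a carrier of purine bases. It was at 48.9 FPKM with DMSO, 10.98 under APO and 28.2 under VER in CWR22Rv1 and was listed at 0 in all 3 C4-2B MDVR libraries. It fell by 2.14 with APO in CWR22Rv1, and the difference with VER was -0.79. SLC43A1 lies 57.0 kb away with 1 coding gene between them and was higher in C4-2B MDVR, so that these neighbours differed between the lines in opposite directions.

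The changes of the 2 lines were set side by side over the 22 members that passed in both and had a mean of at least 1 FPKM. These contrasts share no library. Spearman's rho across genes was 0.65 with APO and 0.47 with VER, beside 0.54 and 0.52 over all 13813 genes of this level, as a description of genes that are not independent. With sign taken into account, the APO difference was higher in C4-2B MDVR for 17 members and lower for 5, where all genes divided into 6724 and 7089. With VER the members divided into 15 and 7 and all genes into 6960 and 6852. Above 1.2-fold, 10 members were higher in both lines with APO and 11 with VER, beside 3031 and 2454 of the 13813 genes, and 4 and 0 were lower in both lines, beside 2956 and 2574. With APO, 4 members were higher than DMSO by this margin in C4-2B MDVR and lower in CWR22Rv1, beside 795 genes, and 1 was the reverse, beside 510. The members with VER were 0 and 2, beside 586 and 456 genes.

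**Figure D3:**
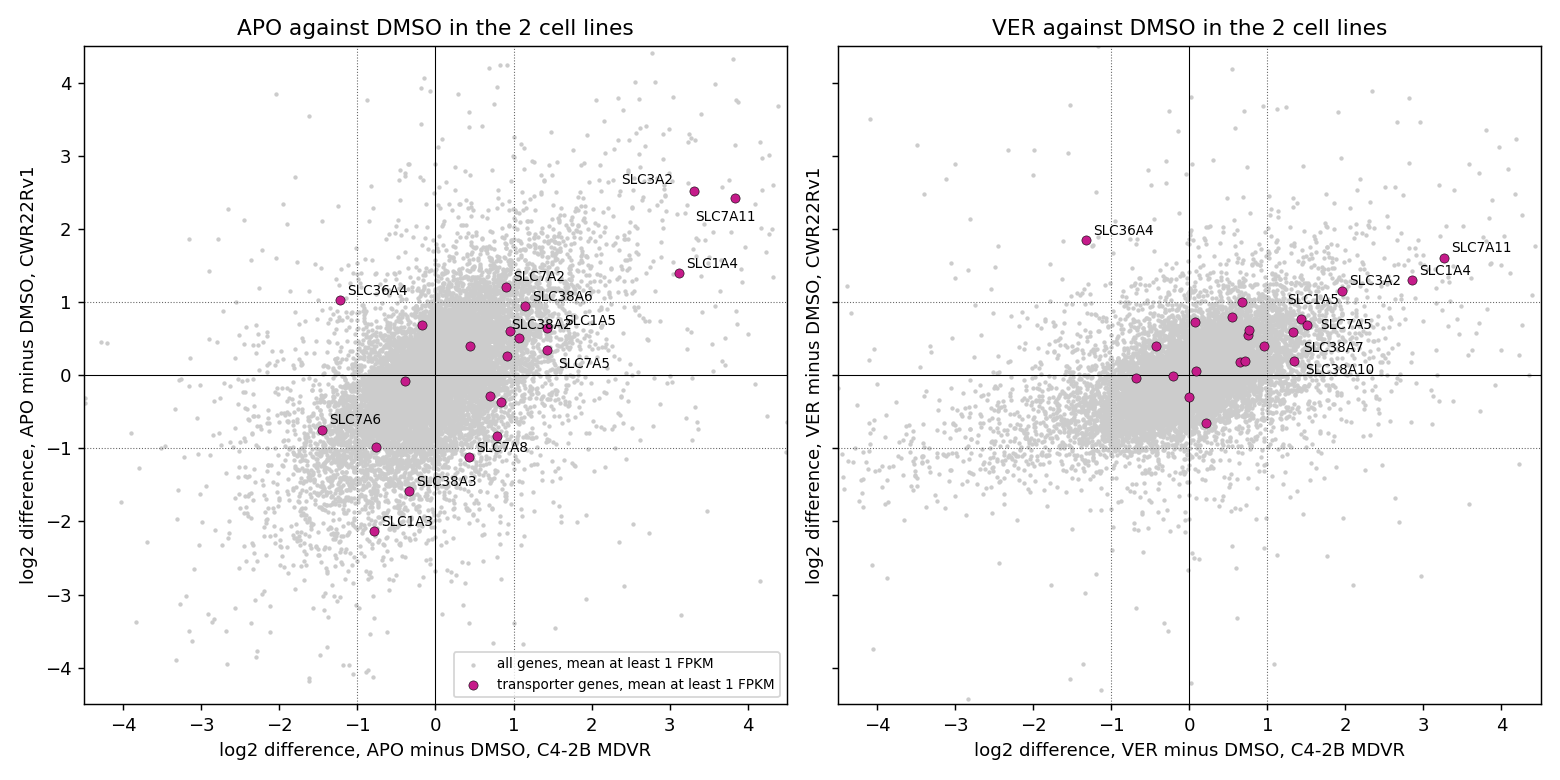
Difference of log2(FPKM + 0.1) from DMSO in C4-2B MDVR (x axis) and CWR22Rv1 (y axis) for APO (left) and VER (right), with the 22 members in colour and all genes that averaged 1 FPKM or more in grey. Genes beyond the axes are not drawn, and dotted lines mark 2-fold. SLC7A11, SLC3A2 and SLC1A4 lie at the upper right in both panels and SLC36A4 at the upper left.

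With DMSO alone, 7 of the 32 members were more than 2-fold higher in C4-2B MDVR, beside 17.1% of all genes, and 8 were higher in CWR22Rv1, beside 24% of all genes. The cell line, the enzalutamide in the medium of one line and the library cannot be told apart in this comparison. SLC36A4 was 30.0-fold higher in C4-2B MDVR, SLC7A8 7.59-fold, SLC43A1 5.32-fold, SLC7A6 3.43-fold, SLC38A3 3.42-fold and SLC43A2 2.55-fold, as ratios of FPKM. The ratio of SLC36A4 rests on 0.160 FPKM in CWR22Rv1 and is imprecise. Its log2 difference with 0.1 added was 4.23, and it ranged from 2.32 to 4.82 under the alternatives tried. SLC7A7 also passed, at 0.325 against 0.102 FPKM.

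Higher in CWR22Rv1 were SLC1A4 (4.37-fold), SLC1A1 (3.34-fold), SLC7A5 (2.52-fold), SLC3A2 (2.07-fold) and SLC38A5 (9.77-fold). The ratio of SLC38A5 rests on 0.145 FPKM in C4-2B MDVR, and its log2 difference ranged from -3.20 to -1.08 under the alternatives. SLC38A4, SLC38A11 and SLC43A3 were at or near 0 in C4-2B MDVR and passed as well. The value for SLC3A2 was close to the line and went to -0.99 when the libraries were scaled to the same sum. Of the 3 members that rose in all 4 contrasts, 2 therefore started lower in C4-2B MDVR by more than 2-fold, and SLC7A11 differed by -0.59 on the log2 scale.

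**Figure D4:**
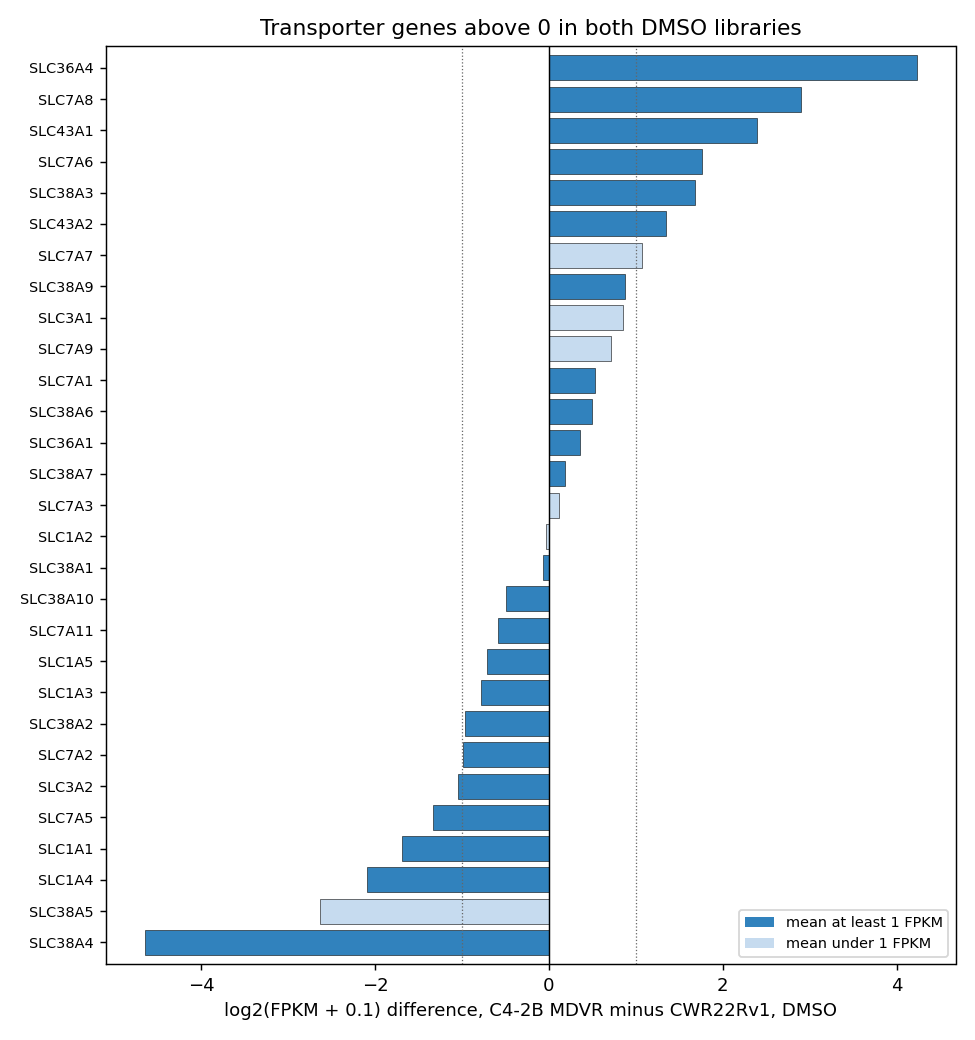
Difference of log2(FPKM + 0.1) between the DMSO libraries, C4-2B MDVR minus CWR22Rv1, for the 29 described members above 0 in both libraries, with 1 bar for each member, paler under a mean of 1 FPKM, and dotted lines at 2-fold. SLC36A4 has the longest bar to the right, at 4.23, and SLC38A4 the longest to the left, at -4.65, from 0.087 FPKM in C4-2B MDVR.

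Sequence before the start sites was looked at for the members that rose in all 4 contrasts, since the genes moved together. RefSeq promoter windows (GRCh38.p14) held 31 of the 40 members, SLC7A11 not among them, and the 250 bases before each start were searched on both strands. The composite element of ATF4 and C/EBP, written TGATGNAA, occurred in 3.15% of all 34943 windows. Of the 31 members, SLC1A3 and SLC1A5 had it in at least 1 of their windows. The core of the antioxidant response element, TGACNNNGC, was added after the first search and occurred in 10.9% of windows, and in SLC1A3, SLC1A5, SLC3A2, SLC7A1, SLC7A6 and SLC7A7. Many members have several windows, so their share is not on the scale of the share of windows. The stretch after the start was added to the search once a match of SLC1A4 was seen to run across it. In the whole windows of 300 bases, with 50 after the start, TGATGNAA occurred in 3.62% of all windows and in 6 of the 31 members, SLC1A3, SLC1A4, SLC1A5, SLC3A2, SLC7A1 and SLC38A1. TGACNNNGC occurred in 13.3% of them and in 7 members, with SLC7A5 added. A match is a run of letters and was not tested as a binding site.

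The window of SLC1A4 before its start, chr2:64989149-64989398 on the plus strand, is shown whole, with the 7 bases that it holds of a match in capitals. It lies inside the span of the gene and in no annotated exon. The match is the reverse complement of TGATGNAA and reaches 1 base into the transcribed part, as the site at chr2:64989381-64989410 shows. Of SLC3A2 (plus strand), the site of TGATGNAA in reverse complement begins 37 bases past a RefSeq start, at chr11:62881719-62881748, and that of TGACNNNGC begins 37 bases before it, at chr11:62881651-62881680. The site of SLC1A5 (chr19:46784893-46784922, minus strand), chosen after the search, begins 97 bases before a RefSeq start. These sites overlap an annotated exon of their own gene, and their motifs are in capitals.
SLC1A4 window: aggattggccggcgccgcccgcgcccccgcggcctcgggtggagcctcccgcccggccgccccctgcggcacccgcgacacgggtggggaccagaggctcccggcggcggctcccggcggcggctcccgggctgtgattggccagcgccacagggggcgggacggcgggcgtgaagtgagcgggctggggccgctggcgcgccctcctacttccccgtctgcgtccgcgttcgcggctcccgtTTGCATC
SLC1A4 site: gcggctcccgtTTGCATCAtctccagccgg
SLC3A2 TGATGNAA site: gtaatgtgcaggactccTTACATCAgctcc
SLC3A2 TGACNNNGC site: acgagggtgggTGACTCAGCgtcctccttc
SLC1A5 site: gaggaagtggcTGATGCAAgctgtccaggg

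Other genes of amino acid handling were counted by the same rule from lists of known members. In a list of 17 genes of the amino acid response by GCN2 and ATF4, 12 rose under APO and 12 under VER in C4-2B MDVR, beside 15.4% and 14.4% of all genes. In CWR22Rv1, 11 and 5 rose, beside 13.8% and 10.8%. In the 4 contrasts 1, 1, 1 and 0 fell, beside 13.3%, 13.3%, 16.8% and 8.92% of all genes. The medians were 1.79, 1.66, 2.15 and 0.73. CHAC1, ASNS, NUPR1, DDIT3 and TRIB3 rose in all 4 contrasts. ASNS, which makes asparagine, was at 61.6, 575 and 496 FPKM with DMSO, APO and VER in C4-2B MDVR and at 105, 525 and 298 FPKM in CWR22Rv1. ATF4 itself, named after its values were seen, rose with both inhibitors in C4-2B MDVR, by 1.79 and 1.72, and with APO in CWR22Rv1, by 1.18, and the value with VER there was 0.68.

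Genes of amino acid sensing by mTORC1 were counted next. They include sensors, other regulators and parts of mTORC1 itself. Of the 37 found among 38 listed, 3 rose under APO and 5 under VER in C4-2B MDVR. In CWR22Rv1, 6 and 4 rose, and of all genes 15.4%, 14.4%, 13.8% and 10.8% rose in the 4 contrasts. In the same order 1, 1, 0 and 2 fell, beside 13.3%, 13.3%, 16.8% and 8.92% of all genes. The medians of the list were 0.17, 0.18, 0.22 and 0.03. SESN2, the leucine sensor, rose in all 4 contrasts, by 3.24 and 2.82 in C4-2B MDVR and 3.19 and 1.74 in CWR22Rv1. The enzymes of glutamine, glutamate, cystine and arginine use had 7 and 4 risen genes of 27 in C4-2B MDVR, and 5 and 2 of the 26 that passed in CWR22Rv1, beside the same shares of all genes. In the same order 2, 0, 1 and 0 fell, beside the same shares of all genes that fell. BCAT1, which transaminates branched-chain amino acids, was the only enzyme of the list to rise in all 4 contrasts.

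The last list held plasma membrane, vesicle and mitochondrial carriers outside the 6 families, most but not all of them carriers of amino acids. Of the 22 that passed among 26, 1 rose under APO and 2 under VER in C4-2B MDVR, and 1 and 1 rose in CWR22Rv1. Of all genes, 15.4%, 14.4%, 13.8% and 10.8% rose. In the same order 3, 3, 3 and 0 of the list fell, beside 13.3%, 13.3%, 16.8% and 8.92% of all genes. The medians were -0.33, 0.06, -0.36 and -0.23. SLC6A9, the glycine carrier GLYT1, rose in all 4 contrasts. Its level was 6.93, 89.0 and 66.4 FPKM with DMSO, APO and VER in C4-2B MDVR and 8.74, 26.3 and 21.5 FPKM in CWR22Rv1.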

How the data were processed

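The labels describe poly(A) selection with a KAPA stranded kit and paired-end reads, and the study's methods name a TruSeq kit. According to the labels the authors used HISAT, Cufflinks and Cuffnorm on GRCh38, versions and annotation release not given in the sources used here, and deposited an FPKM for each gene, which Cuffnorm had normalized across the 6 libraries. The titles name C4-2B MDVR, which was used, where the source label names LNCaP-C4-2B. Of 60658 Ensembl identifiers, 57047 had a symbol in GENCODE 29.

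Differences of log2(FPKM + 0.1) from DMSO of the same line were computed for genes that exceeded 0.1 FPKM in 1 or more of its 3 libraries, and called above 2-fold. Numbers of reads could not be recovered from the values, so counting errors are not given, and with 1 library per condition no test was made. Every member above 0.1 FPKM is named, those with a mean of at least 1 FPKM with every value. Genes of other lists are named where they passed 2-fold in all 4 contrasts, and ATF4 beside them. Members and lists were chosen with earlier results of these data known. The alternatives tried were 3 rescalings, folds of 1.2 and 1.5, a pseudocount of 0.01 or of 1, and either no filter or one at 1 FPKM. The function that computes the differences was checked on fold changes planted without noise in a copy of 1 library. Such a check shows only that the calculation runs as written, and it did not cover the other steps. The work was done in Python 3.11.15 with numpy 2.4.6, pandas 2.3.3 and scipy 1.17.1, and plots were drawn with matplotlib 3.10.9.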

Additional observations from a re-analysis of the deposited data

Results flagged for a closer look

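SLC36A4 and SLC38A5 had differences of opposite sign in the 2 lines with both inhibitors, and with 1 library per condition this difference was not tested. The log2 differences of SLC36A4 were -1.22 under APO and -1.32 under VER in C4-2B MDVR, and 1.02 and 1.85 in CWR22Rv1, where its DMSO level was 0.160 FPKM. Those of SLC38A5 were 1.24 and 0.26 in C4-2B MDVR, where its DMSO level was 0.145 FPKM, and -2.38 and -0.84 in CWR22Rv1. With 0.1 added, the value of 0.26 with VER passed neither 2-fold nor 1.2-fold. It was 0.39 at a pseudocount of 0.01, which passes 1.2-fold.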

How the results depend on the processing

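No paired analysis was possible because each condition has 1 library. SLC3A2, SLC7A11 and SLC1A4 stayed above 2-fold in all 4 contrasts under each pseudocount, filter and rescaling tried. The smallest values were 1.09 for SLC3A2, 1.53 for SLC7A11 and 1.23 for SLC1A4, all with VER in CWR22Rv1. Of 39 called values of members against DMSO, 3 lost the call under a rescaling (SLC38A2 and SLC38A6 with APO in C4-2B MDVR, SLC36A4 with APO in CWR22Rv1) and 15 under any alternative. Of 83 uncalled values, 5 passed 2-fold under a rescaling and 7 under any alternative, and 5 values changed sign. Scaling to the same sum moved the median of genes of at least 1 FPKM by -0.14 with APO in C4-2B MDVR and 0.11 with APO in CWR22Rv1. Without mitochondrial genes it moved by -0.16 and -0.15, and by -0.12 between the DMSO libraries. Members risen with VER in CWR22Rv1 numbered 8 at a pseudocount of 0.01 and 8 after scaling to a median ratio of 1, and 3 at a pseudocount of 1 or with FPKM above 1, where none (0) fell. With the pseudocount of 1, 1 member fell under APO and 1 under VER in C4-2B MDVR and 3 with APO in CWR22Rv1, and with FPKM above 1, 1 fell with VER in C4-2B MDVR. Above 1.2-fold, 18 members were higher and 9 lower with APO in C4-2B MDVR, 15 and 5 with VER, 14 and 11 with APO in CWR22Rv1, 18 and 6 with VER, and 13 and 14 between the DMSO libraries. Above 1.5-fold these were 15 and 6, 14 and 4, 10 higher with APO in CWR22Rv1, 14 and 4 with VER, and 13 higher in CWR22Rv1 with DMSO. The other side of the last comparison and of APO in CWR22Rv1 was not empty. Those 2 counts stayed within 1.5 times of the 2-fold counts, 6 lower with APO in CWR22Rv1 and 7 higher in C4-2B MDVR. Shares of all genes were not counted at 1.5-fold. Values of genes under about 1 FPKM depend on the pseudocount.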

Other observations

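Noncoding genes that share a symbol with the families were also listed. SLC7A11-AS1 was listed at 0 with DMSO in both lines and with APO in CWR22Rv1, and was at 0.935 FPKM under APO and 0.746 under VER in C4-2B MDVR and at 0.443 FPKM with VER in CWR22Rv1. The pseudogene SLC7A5P1 was at 2.91, 1.99 and 1.23 FPKM with DMSO, APO and VER in C4-2B MDVR and at 4.13, 1.32 and 2.38 FPKM in CWR22Rv1. SLC7A5P2 was at 4.42, 2.19 and 2.71 FPKM in C4-2B MDVR and at 0.812 FPKM with DMSO in CWR22Rv1, where it was under 0.001 FPKM with either inhibitor. Both pseudogenes were thus highest with DMSO in each line, and SLC7A5 was lowest there.

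The luminal markers of the prostate moved with the inhibitors in the same libraries. Of the 10 markers, 6 fell under APO and 3 under VER in C4-2B MDVR, 3 fell under APO and 0 under VER in CWR22Rv1, and none rose. Of all genes, 13.3%, 13.3%, 16.8% and 8.92% fell in the same order, and 15.4%, 14.4%, 13.8% and 10.8% rose. The part of these markers in the transporter values was not tested.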
